A study of Apis mellifera with 15 samples.

Results

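The 4 antimicrobial peptide genes Apid1 (apidaecin), LOC406142 (hymenoptaecin), LOC406144 (abaecin) and Def1 (defensin) are described here in the brains of forager honey bees (Apis mellifera) fed thiacloprid, an insecticide of the neonicotinoid class, whose target is the nicotinic acetylcholine receptor. They were chosen by name, as 4 of the 12112 genes in the deposited count table, and all 4 were among the 9560 genes that passed the low-count filter. Adult worker bees from an unpolluted site took sucrose solution in PET bottles for 72 h, with solvent alone (control), with 25 ng thiacloprid per bee or with 250 ng per bee. Each group had 5 libraries of poly-A RNA, and each library was made from a pool of 5 dissected brains, so a single bee cannot be read from these data and p-values measure the spread between pools. The sources used here give no strain, colony, age or infection state for the bees.

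Antimicrobial peptides are small secreted proteins that kill or block microbes, and in insects they are effectors of the humoral immune response. Microbial cell wall fragments are sensed by recognition proteins, and the Toll and Imd pathways then carry Rel family transcription factors into the nucleus, where they switch on peptide genes in the fat body and in haemocytes. Apidaecin and abaecin are proline-rich peptides, hymenoptaecin is glycine-rich, and defensin-1 is a cysteine-rich peptide known from haemolymph and, under the name royalisin, from royal jelly, which the hypopharyngeal glands of the head help to make.

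Control libraries held 9226059 to 11500655 counts, those of 25 ng/bee 8123655 to 10067138 and those of 250 ng/bee 6834898 to 29208991. The library with 29208991 counts, 250 ng/bee replicate 1, stands apart: its label starts with 20191023 and those of the other 14 libraries with 20190809, strings whose meaning the sources do not state. It had the lowest sum of 5 matched neuron markers (of 9 listed), 819.5 CPM (counts relative to a fixed library total, with TMM scaling). A low neuron sum was not particular to this library. The sum ranged from 1017 to 1296 CPM in the control and from 904.9 to 1171.6 CPM at 25 ng/bee. At 250 ng/bee it ranged from 819.5 to 980.2 CPM, below every control library, a difference that was not tested. The edgeR comparisons that involve 250 ng/bee and the correlations between the 4 genes are given with and without 250 ng/bee replicate 1. No library repeated another, since the lowest chi-square per degree of freedom between libraries of a group was 19.5. Markers of tissues that border the brain were present. The summed level of 11 matched gland markers (of 14 listed), led by the royal jelly protein gene Mrjp1, ranged from 35830.1 to 282202 CPM across control libraries, from 101084 to 194222.5 CPM across those of 25 ng/bee and from 38977 to 284460 CPM across those of 250 ng/bee. That of 6 matched fat body markers (of 8 listed), of which the transferrin gene Tsf1 made up 95.01%, ranged from 3530.3 to 4887 CPM, from 3139.6 to 3585.5 CPM and from 2967 to 4324 CPM in the same order, with Hex70c at 0 throughout. In whole brain pools, fewer cells of a type and less RNA per cell cannot be told apart.

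Each gene had 1 transcript in the deposited tables, with coordinates that were the same in the RefSeq gene annotation of Amel_HAv3.1. Apid1 lies on the plus strand of chromosome 16 (4518604 to 4520315) with 8 exons and a transcript of 679 nucleotides. LOC406142 lies on the plus strand of chromosome 6 (2367078 to 2368717) with 2 exons and 664 nucleotides. Def1 lies on the same chromosome and strand (8673495 to 8675023) with 3 exons and 680 nucleotides. LOC406144 lies on the minus strand of chromosome 10 (12267100 to 12267965) with 3 exons and 361 nucleotides. All 4 transcripts were short beside a median of 2181 nucleotides over the tested genes (longest transcript of each gene). Apidaecin is encoded by near-identical copies, and the counting could have split or merged their reads, so Apid1 values stand for the locus as the authors annotated it. The sources do not state whether counting used strand, so an overlapping antisense transcript could not be told apart.

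Per length, Def1 was the most abundant of the 4, with a mean level of 19281 FPKM (fragments per length of transcript and depth of library) over the 15 libraries, rank 3 of 12112 genes. LOC406144 averaged 1809 FPKM (rank 18), LOC406142 947 FPKM (rank 56) and Apid1 482 FPKM (rank 141), and a few libraries set the last 3 means. The medians over 15 libraries were 19677 FPKM for Def1, 909 FPKM for LOC406144, 308 FPKM for LOC406142 and 134 FPKM for Apid1. Within pools the order was nearly the same. Def1 had the highest FPKM of the 4 in all 15 libraries, and LOC406144 was above LOC406142 in all 15, with a ratio of the levels from 1.16 (25 ng/bee replicate 3) to 13.1 (control replicate 5). LOC406142 was above Apid1 in 14 of 15, the exception being control replicate 5 with a ratio of 0.659. The ratio of Def1 to Apid1 varied most, from 4.0 in control replicate 4 to 698 in 250 ng/bee replicate 1 (430.5 in control replicate 3 was next), against a range of 2.33 to 10.1 for LOC406144 to Apid1. Def1 alone took 0.662% to 2.26% of a library's counts, and Apid1 took 0.00323% to 0.365%.

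Apid1, whose product apidaecin acts mainly on Gram-negative bacteria, had 80.1, 299, 50.3, 3538 and 71.8 CPM in control replicates 1 to 5. At 25 ng/bee it had 35.8, 96.6, 430.3, 101 and 78.4 CPM, and at 250 ng/bee 41.8, 110.2, 144, 59.2 and 51.65 CPM. Control replicate 4 was 8.22 times the next-highest of the 15 libraries, 25 ng/bee replicate 3. The groups overlapped, and 4 control libraries lay within the range of the 25 ng/bee libraries. The lowest of all, 25 ng/bee replicate 1, still rested on 340 counts (exact Poisson 95% interval 304.8 to 378, counting error only). Group means were 808 ± 1529 CPM in the control, 148.5 ± 159.6 CPM at 25 ng/bee and 81.3 ± 43.75 CPM at 250 ng/bee (SD, n = 5 each). Control replicate 4 held 87.6% of the control sum, and the other 4 controls averaged 125 CPM. The medians were 80.1, 96.6 and 59.2 CPM in the same order of dose.

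LOC406142, the gene of hymenoptaecin, a peptide active on Gram-negative and Gram-positive bacteria, had 572, 1109, 50.7, 4832 and 46.3 CPM in control replicates 1 to 5. It had 131, 543, 1679.5, 272 and 98.0 CPM at 25 ng/bee, and 62.0, 203, 315, 80.65 and 74.7 CPM at 250 ng/bee. The control held both the highest and the lowest library of the 15, a 104-fold range within solvent control pools, so the groups overlapped. Within 25 ng/bee the highest library was 17.1 times the lowest, and within 250 ng/bee 5.09 times. The means were 1322 ± 2011 CPM in the control, 545 ± 658 CPM at 25 ng/bee and 147 ± 110 CPM at 250 ng/bee (SD, n = 5 each), with medians of 572, 272 and 80.65 CPM. Control replicate 4 held 73.1% of the control sum, and 25 ng/bee replicate 3 held 61.7% of its group's sum.

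LOC406144, the gene of abaecin, a peptide that in bumble bees strengthens the action of hymenoptaecin on bacteria, had 431, 1265.5, 207, 4386 and 330.5 CPM in control replicates 1 to 5. It had 129.8, 435, 1063, 512 and 189 CPM at 25 ng/bee, and 180.4, 299, 611, 222 and 232 CPM at 250 ng/bee. The same pools led: control replicate 4 was highest of the 15, with 3.47 times the level of control replicate 2, and replicate 3 was highest at either dose. The groups overlapped. Its means were 1324 ± 1761 CPM in the control, 466 ± 371 CPM at 25 ng/bee and 309 ± 174 CPM at 250 ng/bee (SD, n = 5 each), and its medians were 431, 435 and 232 CPM. Control replicate 4 held 66.2% of the control sum.

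Def1, the gene of defensin-1, had 5389, 19287, 21691, 14171 and 12223.5 CPM in control replicates 1 to 5. It had 13359, 15494, 16487, 14058 and 12971 CPM at 25 ng/bee, and 29202, 8396, 15161, 6977 and 14309 CPM at 250 ng/bee. Control replicate 4, the highest pool for the other 3 genes, was the middle one of the controls, at 0.485 of the level in 250 ng/bee replicate 1. The 25 ng/bee libraries lay close together, within 1.27-fold, inside the ranges of both other groups. The means were 14552 ± 6382 CPM in the control, 14474 ± 1480.4 CPM at 25 ng/bee and 14809 ± 8803 CPM at 250 ng/bee (SD, n = 5 each). Without 250 ng/bee replicate 1 that group's mean was 11211 ± 4125 CPM (n = 4).

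**Figure D1:**
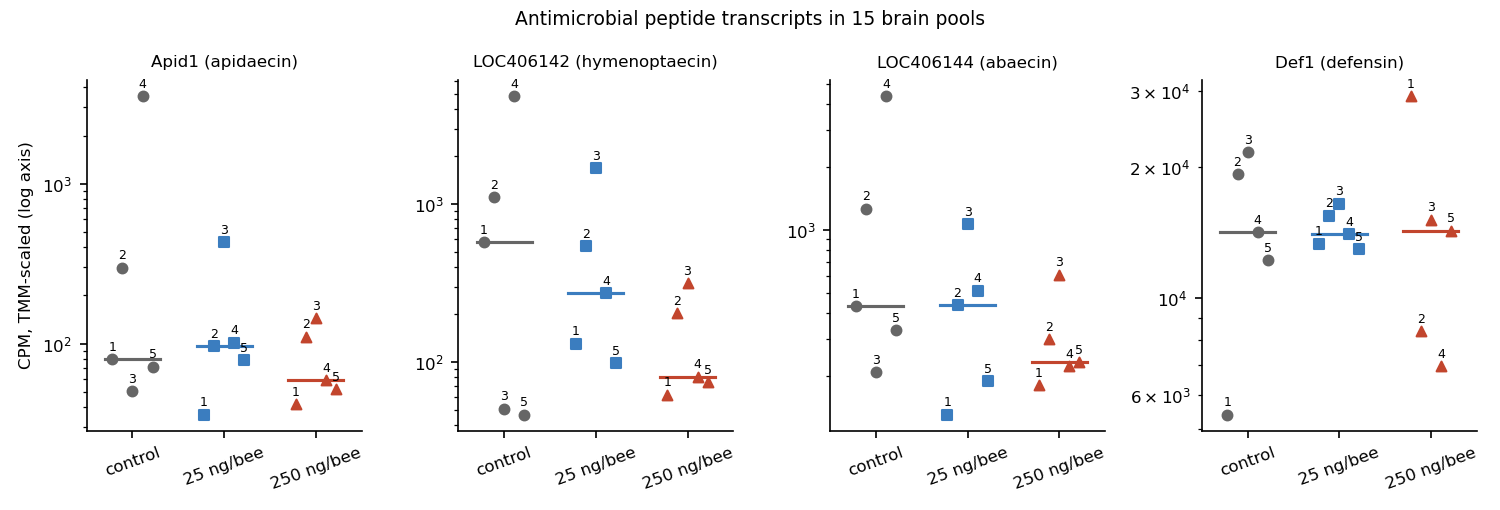
Levels of the 4 genes in every library, as TMM-scaled CPM on log axes, by dose; each point is a pool of 5 brains and the short line is the group median. Control replicate 4 stands above all other libraries for Apid1, LOC406142 and LOC406144 (3538, 4832 and 4386 CPM) and within the other controls for Def1 (14171 CPM).

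The pools of a group differed in these genes more than in nearly all others. The SD of log2(CPM + 1) about the group means was 2.01 for LOC406142, rank 3 of 9560 tested genes, 1.68 for Apid1 (rank 11) and 1.29 for LOC406144 (rank 41), beside a median SD of 0.24 over all tested genes. Def1 had 0.66, rank 305, which left 3.18% of tested genes with a larger SD. Control replicate 4 carried part of this: without it the SDs were 1.69 (rank 11), 1.07 (rank 79) and 1.01 (rank 91) in the same order, and 0.69 for Def1 (rank 280). The SD of the log2 level within the control, 25 ng/bee and 250 ng/bee groups was 2.51, 1.29 and 0.75 for Apid1, 2.90, 1.65 and 1.02 for LOC406142 and 1.76, 1.20 and 0.68 for LOC406144. Their pools lay farthest apart in the control and closest at 250 ng/bee, a description of 5 pools a group whose difference in spread was not tested. For Def1 the SDs were 0.79, 0.15 and 0.81.

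**Figure D2:**
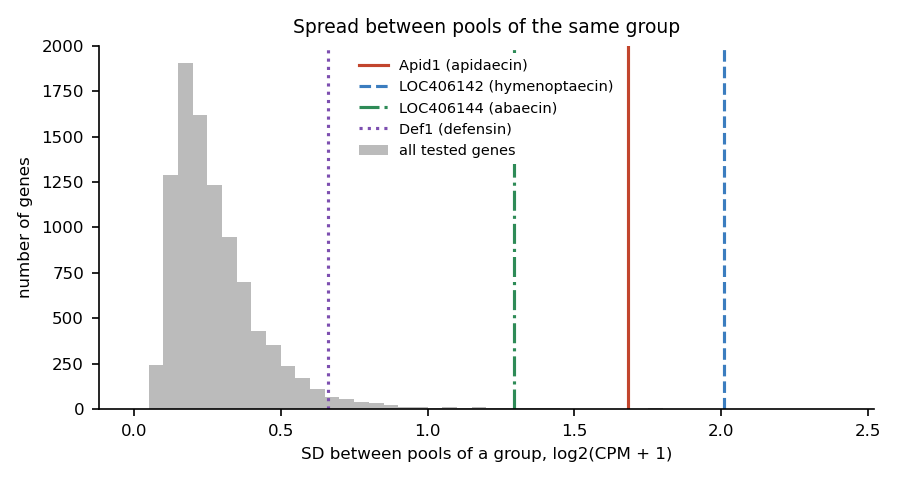
Number of tested genes by their SD between pools of the same group, in log2(CPM + 1), with the 4 antimicrobial peptide genes as vertical lines. LOC406142 (2.01), Apid1 (1.68) and LOC406144 (1.29) lie in the far right tail, and Def1 (0.66) lies right of most genes, whose median was 0.24.

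The levels of Apid1, LOC406142 and LOC406144 were correlated over the pools, and control replicate 4 was highest for each. Their lowest pools differed: 25 ng/bee replicate 1 for Apid1 and LOC406144, and control replicate 5 for LOC406142. In log2(CPM + 1) over the 15 libraries, Apid1 and LOC406144 had a Pearson r of 0.960 (permutation p = 1e-05, the smallest 100000 resamples can give; adjusted p = 0.00013) and a Spearman rho of 0.918 (permutation p = 2e-05, adjusted p = 0.00052). Apid1 and LOC406142 had r = 0.877 (permutation p = 2e-05, adjusted p = 0.000173) and rho = 0.825 (permutation p = 0.00039, adjusted p = 0.00338). LOC406142 and LOC406144 had r = 0.899 (permutation p = 3e-05, adjusted p = 0.000195) and rho = 0.779 (permutation p = 0.00109, adjusted p = 0.00708). Adjusted values cover the family of 26 correlations computed, and all points share the same libraries and scaling. The relation did not rest on the extreme pools. Without the 2 libraries farthest from the median of the first-named gene, r was 0.929, 0.770 and 0.792 for the 3 pairs in that order, and without control replicate 4 it was 0.933, 0.841 and 0.843. Among the 14 libraries with the 20190809 label it was 0.957, 0.869 and 0.893. After each group's mean was subtracted it was 0.956, 0.881 and 0.922, so the pairs also moved together among pools of equal dose.

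Def1 showed no such relation with the other 3. Its r was 0.06 with Apid1 (permutation p = 0.821), -0.05 with LOC406142 (permutation p = 0.862) and 0.06 with LOC406144 (permutation p = 0.814), each with an adjusted p of 0.954. The rho values were 0.04 (permutation p = 0.904), 0.04 (permutation p = 0.885) and 0.14 (permutation p = 0.632) in that order, each with an adjusted p of 0.995. Without the 2 farthest libraries r was -0.03, -0.18 and -0.09, and among the 14 libraries with the 20190809 label 0.21, 0.10 and 0.22. With 15 libraries a weak relation would not be detectable, so these values do not show that there was none.

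**Figure D3:**
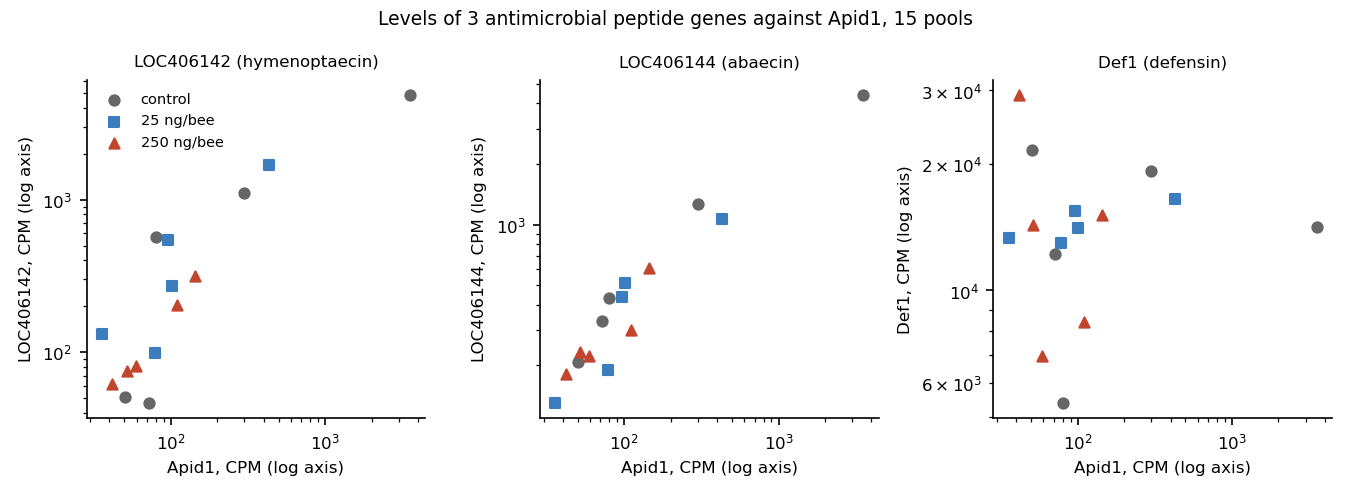
Levels of LOC406142, LOC406144 and Def1 against Apid1 in the 15 libraries, in CPM on log axes, with control, 25 and 250 ng/bee marked by colour and shape. LOC406142 and LOC406144 lie along a rising band in every group (r = 0.877 and 0.960), and Def1 shows none (r = 0.06).

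Def1 instead followed the gland markers. Control replicate 1, lowest in Def1 (5389 CPM), had the lowest gland sum (35830.1 CPM), and 250 ng/bee replicate 1, highest in Def1 (29202 CPM), had the highest gland sum (284460 CPM). Across the 15 libraries r was 0.931 (permutation p = 1e-05, adjusted p = 0.00013) and rho 0.868 (permutation p = 0.0001, adjusted p = 0.0013). Without the 2 libraries farthest in gland sum, control replicate 1 and 250 ng/bee replicate 4, r was 0.847. It was 0.930 without 250 ng/bee replicate 1, 0.935 on values centred within groups and 0.872 in log2(FPKM + 1). With Mrjp1, which made up 48.3% of the sum, left out of the sum, r was 0.884. Within 25 ng/bee, where Def1 varied 1.27-fold, the orders did not match: replicate 2 had the lowest gland sum of its group (101084 CPM) and the second-highest Def1 (15494 CPM). In FPKM, the ratio of Def1 to Mrjp1 stayed within a 2.35-fold range, 0.286 to 0.671. The gland sum itself ran from 35830.1 to 284460 CPM with TMM scaling. The part that gland tissue has in the Def1 level was not tested. The other 3 genes had r of 0.09 (Apid1, permutation p = 0.749), 0.03 (LOC406142, permutation p = 0.917) and 0.10 (LOC406144, permutation p = 0.734) with the same sum, each with an adjusted p of 0.954. A sum led by Mrjp1 does not stand for each of its 11 genes: the rho of LOC406144 was 0.575 with Hbg3 and 0.525 with Mrjp9 but -0.579 with Hbg2, and that of LOC406142 was 0.646 with Mrjp9 and -0.496 with Hbg2.

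**Figure D4:**
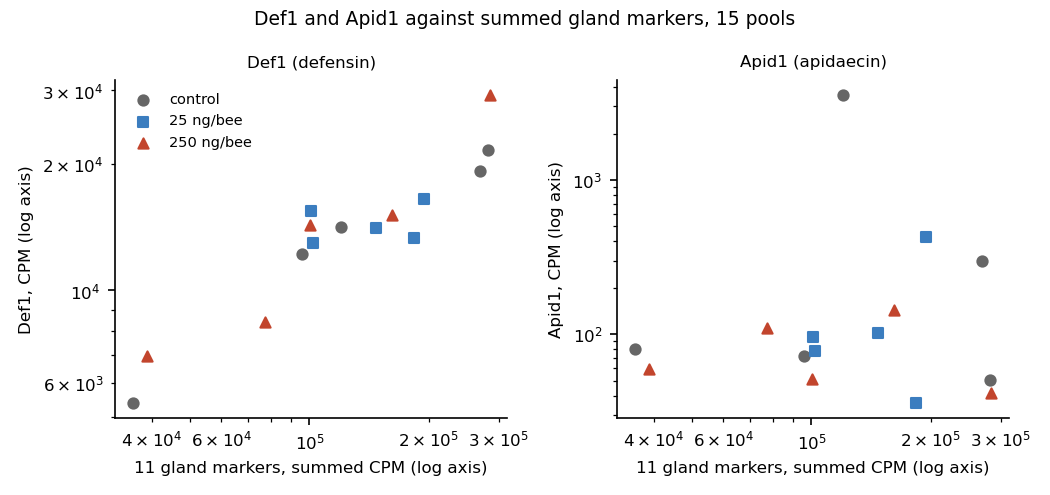
Def1 and Apid1 against the summed CPM of 11 gland markers in the 15 libraries, log axes, with the groups marked by colour and shape. Over all 15 libraries Def1 rises with the gland sum (r = 0.931) and Apid1 does not (r = 0.09), and within 25 ng/bee, where Def1 varied least, the libraries form no clear rising line.

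Fat body and haemocyte markers were set beside the same genes. The fat body sum was highest in control replicate 4 (4887 CPM), the pool with the highest Apid1, LOC406142 and LOC406144. In that pool Tsf1 had 4720 CPM and ranked 1 of 15, but the yolk protein gene Vg (62.7 CPM) ranked 10 and the storage protein genes Hex70a (77.6 CPM), Hex110 and HEX70b ranked 7, 9 and 10. The r with the fat body sum was 0.42 for Apid1 (permutation p = 0.116, adjusted p = 0.52), with a rho of 0.06. It was 0.19 for LOC406142 (permutation p = 0.494, adjusted p = 0.954), 0.40 for LOC406144 (permutation p = 0.14, adjusted p = 0.52) and 0.42 for Def1 (permutation p = 0.121, adjusted p = 0.52). Without control replicate 4 it was 0.02 for Apid1, -0.15 for LOC406142, 0.07 for LOC406144 and 0.47 for Def1, and on values centred within groups 0.30, 0.10, 0.20 and 0.64. Of 8 haemocyte markers only PPO, the prophenoloxidase gene, was matched, at 91.5 to 310 CPM, and its r with each of the 4 genes did not pass (adjusted p of 0.954 or more). Nor did that of any of the 4 with the neuron sum or the total count (adjusted p of 0.642 or more). With the neuron sum r was -0.09, -0.09, -0.10 and -0.32 for Apid1, LOC406142, LOC406144 and Def1. On values centred within groups it was -0.44, -0.47, -0.51 and -0.45. With the total count r was -0.05, -0.07, -0.08 and 0.37 in that order. Without the 2 libraries farthest in total count it was 0.375, 0.365, 0.348 and -0.27. The part of fat body or haemocytes in the 3 peptide levels was not tested.

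For each gene, the 5 tested genes with the most similar order of levels over the 15 libraries were listed, without the 4 themselves. Apid1 was most like LOC551582 (rho = 0.864), LOC494509 (0.857), LOC409264 (0.857), LOC113219119 (0.818) and LOC100578943 (0.818), and 4 of these, all but LOC409264, were also among the 5 of LOC406144. For that gene the order was LOC494509 (0.854), LOC411577 (0.818), LOC551582 (0.818), LOC100578943 (0.814) and LOC113219119 (0.811). The nearest to LOC406142 were LOC412707 (0.871), LOC411998 (0.868), LOC413732 (0.85), LOC411577 (0.846) and LOC411417 (0.846). Among all 9559 other tested genes, LOC406144 ranked 1 and LOC406142 ranked 5 for Apid1, Apid1 ranked 1 and LOC406142 ranked 18 for LOC406144, and Apid1 ranked 9 and LOC406144 ranked 27 for LOC406142. Def1 ranked 4608 for Apid1, 4645 for LOC406142 and 3510 for LOC406144. Def1 had LOC408306 (0.911), the royal jelly protein gene Mrjp5 (0.889), LOC552836 (0.882), LOC726542 (0.864) and LOC411223 (0.854) nearest to it, and of the other 10 gland markers Mrjp6, Mrjp1, Mrjp3, Mrjp2, Mrjp7 and Hbg3 at ranks 7, 19, 39, 87, 107 and 166. The remaining 4 lay farther away, Mrjp4 at rank 666, Mrjp9 at 1229, AGLU2 at 1270 and Hbg2 at 5689 with a rho of -0.08. These are descriptions over 15 libraries that share their depth and scaling.

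The first comparison asked which genes differ after the higher dose, and none of the 4 passed the test. All 5 libraries at 250 ng/bee were below the control mean for Apid1, LOC406142 and LOC406144, and 3, 5 and 4 of them were below the control median. By edgeR's quasi-likelihood F test, the log2 fold change at 250 ng/bee against the control was -3.32 ± 1.07 (SE) for Apid1 (adjusted p = 0.299), -3.17 ± 1.10 for LOC406142 (adjusted p = 0.326) and -2.10 ± 0.75 for LOC406144 (adjusted p = 0.339). For Def1 it was 0.03 ± 0.39 (edgeR adjusted p = 0.984). At adjusted p under 0.05 edgeR called 0 of 9560 genes (0%), against 53 in DESeq2 and 390 in limma-voom with sample weights. At an unadjusted p under 0.05, Apid1, LOC406142 and LOC406144 stood among the 1144 genes (12%) that edgeR gave, and among the 715 (7.48%) with a lower level, beside 429 with a higher one. The balance was not stable: with the size factors of DESeq2 in edgeR 544 were lower and 533 higher, and without 250 ng/bee replicate 1 edgeR gave 2051 genes, 821 lower and 1230 higher. Without control replicate 3 it gave 723, 349 lower and 374 higher. The counts in DESeq2 and limma-voom were 1163 and 2650. LOC406142 and LOC406144 were among the 1163 of DESeq2 (adjusted p = 0.149 and 0.195 in DESeq2), which gave no p for Apid1. In limma-voom, which fits log values, the log2 fold changes were -1.38 for Apid1, -1.46 for LOC406142 and -1.28 for LOC406144. None of the 3 was among its 2650 genes. The part of its sample weights in these values was not tested. None of the 4 had groups that did not overlap, where 2.75% of tested genes did.

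The size of these fold changes depended on control replicate 4. Without it, the log2 fold changes at 250 ng/bee against the control were -0.62 for Apid1, -1.60 for LOC406142, -0.85 for LOC406144 and 0.02 for Def1, and none of the 4 had an unadjusted p under 0.05. The log2 fold change of a count model compares arithmetic means, which 1 high pool can set. On the log scale, where a high pool weighs less, the difference of mean log2(CPM + 1) was -1.44 for Apid1 (exact two-sided permutation p = 0.286), -1.64 for LOC406142 (exact p = 0.270), -1.31 for LOC406144 (exact p = 0.167) and -0.01 for Def1 (exact p = 0.984). Of the 12 such single-gene tests, over 252 splits of 5 against 5 each, none reached 0.05, and 0.00794 is the smallest p they allow. Leaving out control replicate 3 instead moved LOC406144 to -1.75 with an exact permutation p of 0.0476, the only leave-out that crossed 0.05 in these tests. Without 250 ng/bee replicate 1, all remaining libraries having the 20190809 label, the edgeR fold changes were -3.13, -2.95 and -1.94 for Apid1, LOC406142 and LOC406144 (adjusted p of 0.142, 0.175 and 0.187) and -0.35 for Def1, while 248 genes were called. With both control replicate 4 and 250 ng/bee replicate 1 left out they were -0.44, -1.39, -0.69 and -0.37.

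The comparison of 25 ng/bee with the control gave smaller edgeR fold changes, which also depended on single pools. The log2 fold change was -2.44 ± 1.03 for Apid1 (edgeR adjusted p = 0.999), -1.28 ± 1.03 for LOC406142 (edgeR adjusted p = 0.999), -1.51 ± 0.73 for LOC406144 (edgeR adjusted p = 0.999) and -0.01 ± 0.39 for Def1 (edgeR adjusted p = 0.999). Without control replicate 4 the values were 0.25, 0.29, -0.26 and -0.02, so Apid1 and LOC406142 then lay on the other side of 0. Without 25 ng/bee replicate 3, the highest pool of its group, they were -3.37, -2.34, -2.07 and -0.06. On the log scale the differences were -0.93 (Apid1, exact permutation p = 0.571), -0.24 (LOC406142, exact p = 0.849), -0.96 (LOC406144, exact p = 0.341) and 0.13 (Def1, exact p = 0.841). At adjusted p under 0.05 edgeR, DESeq2 and limma-voom each called 0 genes (0% of 9560). At an unadjusted p under 0.05 they gave 235 (2.46%), 264 and 588, with Apid1 the only one of the 4 in edgeR, where 134 genes (1.4%) had a lower level. None of the 4 had groups that did not overlap, where 0.921% of tested genes did.

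Between the doses, 250 against 25 ng/bee, the log2 fold changes were -0.87 ± 0.99 for Apid1, -1.89 ± 1.05 for LOC406142, -0.59 ± 0.72 for LOC406144 and 0.03 ± 0.39 for Def1, each with an edgeR adjusted p of 0.934 or more. Without 25 ng/bee replicate 3 they were 0.06, -0.83, -0.04 and 0.08, and without 250 ng/bee replicate 1 they were -0.69, -1.68, -0.43 and -0.35. Here too 0 genes were called by any of the 3 tools (0%), against 477 (4.99%, of which 246 or 2.57% of tested genes were lower) at an unadjusted p under 0.05 in edgeR, 540 in DESeq2 and 847 in limma-voom. None of the 4 was among the 477 or had groups that did not overlap, where 0.711% of tested genes did. The test of any difference among the 3 groups gave adjusted p of 0.702, 0.720, 0.718 and 0.999 for Apid1, LOC406142, LOC406144 and Def1 in edgeR. It called 0 genes (0%) in edgeR and limma-voom and 17 in DESeq2, beside 645 (6.75%), 1837 and 750 at an unadjusted p under 0.05. Apid1, LOC406142 and LOC406144 were among the 645 of edgeR, and Def1 was not. Without control replicate 4 none of the 4 had an unadjusted p under 0.05 in this test. The first 2 comparisons share the control libraries, control replicate 4 among them, so their fold changes are not independent.

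**Figure D5:**
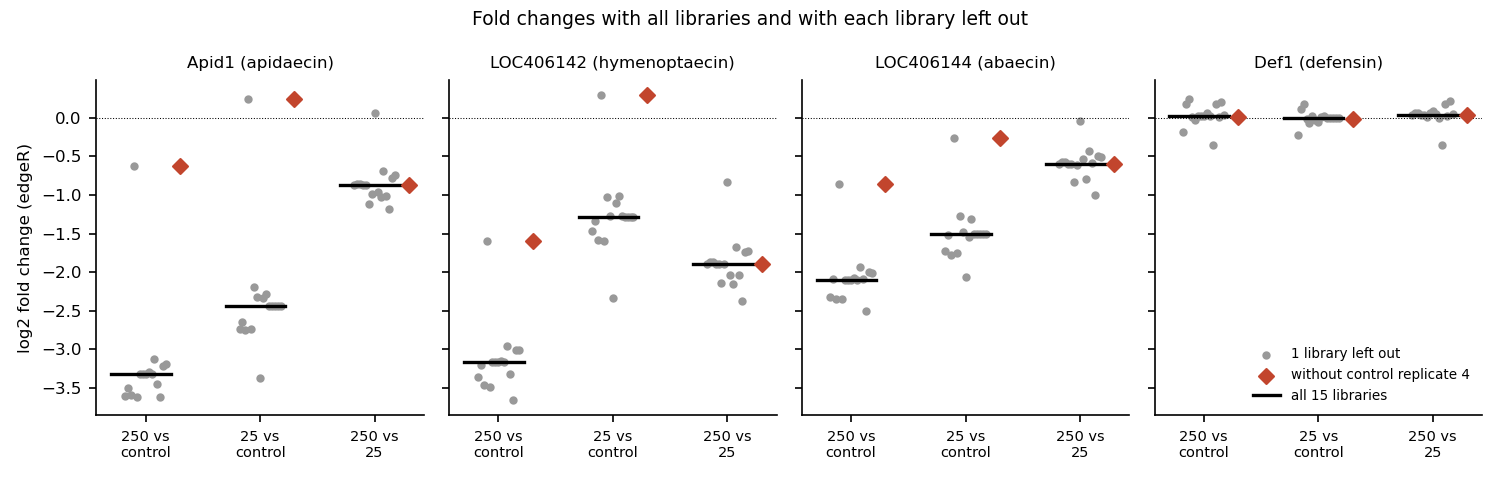
edgeR log2 fold changes of the 4 genes in the 3 comparisons: the black line uses all 15 libraries, each grey point leaves out 1 library and the red diamond leaves out control replicate 4. For 250 ng/bee against the control, Apid1 has -3.32 with all libraries and -0.62 without control replicate 4, and for 25 ng/bee against the control -2.44 and 0.25.

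Genes that act upstream of these peptides or beside them were taken from a list of 80 names, of which 10 were matched and 9 tested. At 250 ng/bee against the control 3 had a higher and 6 a lower level, with a median log2 fold change of -0.26, beside 4245 higher, 5315 lower and a median of -0.03 over all tested genes. None passed (lowest adjusted p = 0.362 in edgeR), and 3 had an unadjusted p under 0.05, as did 12% of all tested genes. One was cact1, an inhibitor that holds back Rel factors in the Toll pathway, with 10.6 ± 3.50 CPM at 250 ng/bee against 14.8 ± 2.58 CPM in control pools (SD, n = 5 each) and a log2 fold change of -0.48 ± 0.22 (edgeR adjusted p = 0.412). The recognition protein gene Pgrp-s2 had 58.5 ± 14.1 CPM at 250 ng/bee against 76.8 ± 11.1 CPM in control pools and a log2 fold change of -0.39 ± 0.18 (edgeR adjusted p = 0.399). NOS, the nitric oxide synthase gene, had 67.95 ± 2.93 CPM at 250 ng/bee against 82.9 ± 10.5 CPM in control pools and a log2 fold change of -0.29 ± 0.11 (edgeR adjusted p = 0.362). At 25 ng/bee against the control 3 were higher and 6 lower, with a median of -0.04, beside 4569 higher, 4991 lower and a median of -0.01 over all tested genes, and 2 had an unadjusted p under 0.05, as did 2.46% of all tested genes. Pgrp-s2 again had a lower level, 52.4 ± 12.2 CPM at 25 ng/bee (log2 fold change -0.55 ± 0.18, edgeR adjusted p = 0.999). PGRP-S3, another recognition protein gene, had 24.3 ± 11.2 CPM at 25 ng/bee against 15.8 ± 3.23 CPM in control pools (log2 fold change 0.63 ± 0.23, edgeR adjusted p = 0.999). Between the doses none of the 9 had an unadjusted p under 0.05. Imd, the adaptor of the pathway of that name, had a log2 fold change of 0.04 at 250 ng/bee against the control (edgeR adjusted p = 0.904). Def2, the second defensin gene, had 4 counts in 1 library (250 ng/bee replicate 2) and none in the other 14.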

How the data were processed

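The authors deposited a gene table of estimated counts for 12112 genes and, per the file headers, 1 table per library with the FPKM and the coverage of 28276 transcripts. Tools listed in the submitters' processing notes, with no role stated, were StringTie 2.0.2, HISAT2 2.1.0, DESeq2 1.22.2, Trimmomatic 0.39 and SAMtools 1.7. The genome build was not given in the sources used here, nor was the use of strand. For the 4 genes, all 60 deposited counts equal coverage times transcript length over a read length of 75, within 1 count. Groups and replicate numbers come from the sample titles. The stranded poly-A kit is named in the labels' protocols.

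Counts were tested with edgeR 4.0.16 (R 4.3.3) by the quasi-likelihood F test, two-sided, with TMM scaling, filterByExpr on the groups and all 15 libraries in 1 fit without covariates. The 9560 tested genes held 99.96% of the counts. Benjamini-Hochberg adjustment ran over all tested genes with a threshold of 0.05. DESeq2 1.42.0, limma-voom with sample weights and limma on log2(FPKM + 1) (limma 3.58.1) were alternatives, with other scalings, filters, pseudocounts, a replicate block and each library left out. Levels and correlations used log2(CPM + 1), with permutation tests run in Python 3.11.15 (numpy 2.4.6, scipy 1.17.1). Those of levels went through all splits or, with the replicate block, all sign flips. FPKM was used to compare levels between genes. The fits were tested on simulated data. Intervals cover counting error only.

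The 4 genes and all gene lists were chosen with earlier results of these data known. Named are the 4 genes, pathway members at an unadjusted p under 0.05 in any comparison, and the 5 tested genes with the highest Spearman rho to each of the 4, ties broken by Pearson r. Mrjp5 falls under the last part. Imd and Def2, and the single genes of marker lists and the other Mrjp genes with their ranks, were named after their values were seen.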

Additional observations from a re-analysis of the deposited data

Results flagged for a closer look

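Within a group of 5 libraries, 6 values lay farther from the rest than Dixon's 95% limit allows (a gap to the nearest library of more than 0.71 of the group's range). For normally distributed values chance alone gives such a value in about 1 in 20 groups, a rate that need not hold for CPM as skewed as these, and the genes are correlated, so the 6 are not independent. Control replicate 4 accounted for 3 of them: Apid1 with 3538 CPM (gap 0.929 of the range), LOC406142 with 4832 CPM (0.778) and LOC406144 with 4386 CPM (0.747). At 25 ng/bee, replicate 3 was set apart in Apid1 with 430.3 CPM (0.834) and in LOC406142 with 1679.5 CPM (0.719). At 250 ng/bee, replicate 3 was set apart in LOC406144 with 611 CPM (0.724). No Def1 value was set apart by this measure. In log2(CPM + 1), a scale added after seeing the data, none of the 6 passed the limit: the gap was 0.583, 0.318 and 0.408 of the range for control replicate 4 in Apid1, LOC406142 and LOC406144, 0.585 and 0.399 for 25 ng/bee replicate 3 in Apid1 and LOC406142, and 0.585 for 250 ng/bee replicate 3 in LOC406144.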

How the results depend on the processing

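Of 762 values under alternatives, 705 kept their direction and their side of the threshold, or for a count stayed within 1.5 times. With all 15 libraries, the signs of Apid1, LOC406142 and LOC406144 held in the count fits and FPKM fits under the size factors of DESeq2, no filter, DESeq2, limma-voom and the block in all 3 comparisons. DESeq2 gave no p for Apid1. Where values turned sign or a count moved, the cause was not tested. With control replicate 4 and 250 ng/bee replicate 1 both left out, an alternative chosen after seeing the data, the log2 fold change at 25 ng/bee against the control was 0.26 for Apid1 and 0.30 for LOC406142. For Def1, whose values lie near 0, it turned at 250 ng/bee against the control (-0.42 in limma-voom, -0.0292 with the replicate block, -0.367 without both libraries), at 25 ng/bee against the control (0.0442 in limma-voom, 0.129 in FPKM) and between the doses (-0.466 in limma-voom, -0.0251 with the replicate block, -0.356 without both libraries, -0.110 in FPKM). Its log-scale difference at 250 ng/bee against the control was 0.00938 with the size factors of DESeq2 and 0.0194 in FPKM, added after seeing the data. Correlations with Def1 turned to -0.0154 (Apid1) and -0.0419 (LOC406144) in FPKM and to 0.0705 (LOC406142) without both libraries. Genes called at 250 ng/bee against the control numbered 53 in DESeq2, 390 in limma-voom and 64 without both libraries, and 17 for any difference in DESeq2.

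Leaving out each library in turn, the log2 fold change at 250 ng/bee against the control was -3.62 to -0.62 for Apid1, -3.65 to -1.60 for LOC406142, -2.50 to -0.85 for LOC406144 and -0.35 to 0.25 for Def1. At 25 ng/bee against the control it was -3.37 to 0.25, -2.34 to 0.29, -2.07 to -0.26 and -0.22 to 0.18, and between the doses -1.18 to 0.0566, -2.37 to -0.83, -0.996 to -0.0352 and -0.35 to 0.21. On the log scale the differences were -1.93 to -0.40, -2.39 to -0.72, -1.75 to -0.65 and -0.34 to 0.21 at 250 ng/bee against the control, -1.45 to 0.10, -0.99 to 0.68, -1.40 to -0.30 and -0.19 to 0.32 at 25 ng/bee against the control, and -0.88 to 0.00466, -1.83 to -0.80, -0.717 to 0.0390 and -0.441 to 0.0753 between the doses. Correlations with Def1 were -0.00736 to 0.21 (Apid1), -0.16 to 0.10 (LOC406142) and -0.0163 to 0.22 (LOC406144). Genes called at 250 ng/bee against the control numbered 0 to 248, with 248 without 250 ng/bee replicate 1 and 2 without 250 ng/bee replicate 3. Those at an unadjusted p under 0.05 in edgeR numbered 723 to 2051 at 250 ng/bee against the control, 132 to 511 at 25 ng/bee against the control and 297 to 770 between the doses, with each highest count from leaving out 250 ng/bee replicate 1.

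Replicate numbers are shared between groups, and the labels do not say that they pair the pools. The 15 same-numbered pairs had correlations of -0.0767 to 0.325 (median 0.0652), with 6 over 0.1, and the 60 pairs with different numbers -0.279 to 0.321 (median -0.019), with 8 over 0.1. With the replicate block the log2 fold changes at 250 ng/bee against the control were -1.82, -2.58, -1.61 and -0.0292 for Apid1, LOC406142, LOC406144 and Def1, and 0 genes were called in every comparison. Between the doses the blocked exact permutation p of LOC406142 was 0.0625, the smallest its 32 sign flips allow. The correlation of Apid1 and LOC406144 was 0.945 with the block. The lowest count of the 4 genes was 340.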
